A study of Mus musculus with 24 samples.

Results

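Clusterin, the product of the mouse gene Clu, was followed over every array of 7 mouse tumour cell lines. Clu was 1 of 45547 gene names on the array and was read by 1 probe, A_55_P2017929, whose accession names Clu on chromosome 14. The gene was chosen by its higher measured signal in the DB#1 line than in the D line, so values that rest on DB#1 or D arrays are given as a description, with no test. Tests of Clu were run only between lines that did not enter that choice. Their estimate of the spread was nevertheless taken over all arrays, those of DB#1 and D included.

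Clusterin is a secreted glycoprotein that binds misfolded proteins outside the cell, and it is also known as apolipoprotein J because it travels on lipoprotein particles. Its precursor is cut into an alpha and a beta chain by proprotein convertases on the way to the cell surface. It holds back the terminal complement complex, is taken up through lipoprotein receptors, and binds Bax inside stressed cells. Its gene is induced by heat shock factors and other stress-responsive regulators, and in the brain it is made mainly by astrocytes.

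Of the 5 melanoma lines, all of B16F1 origin and carrying GFP, M was the parental line (3 arrays), D was recovered after long dormancy in immunotherapy-based mouse models (4 arrays), and DB#1 (4 arrays), DB#2 (3 arrays) and DB#3 (3 arrays) were a later generation from a brain site. The 2 myeloid lines are named M0 (4 arrays) and J365 (3 arrays), and the labels do not say which leukemia each is. In both, 1 array carries no replicate number in its label and is called replicate 4 here. Cells were expanded in culture before RNA was taken, so each group is a cultured line and not a tissue, and each DB group is 1 line. Nothing states that arrays of a line came from separate cultures, so p-values measure only the spread between these samples, which may be technical.

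The arrays lay on 3 slides, each holding all 7 lines. The share of probes well above background was 43.6% to 53.8% on all arrays except D replicate 3, where it was 89.9%. With 3 or 4 arrays for each line, precision was limited. The 9 melanocyte lineage markers were above background on every melanoma array, with a mean normalized log2 signal of 6.05 to 7.11 per array. The 10 blood lineage markers were above background on every myeloid array (1.89 to 2.85).

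Clu was brightest in the myeloid lines and differed widely among the melanoma lines. The unit is the normalized log2 signal, the log2 intensity minus the 75th percentile of the same array, so that 0 is the array's 75th percentile and 1 unit is a doubling. On the M0 arrays the signal was 5.04, 4.60, 4.28 and 3.58 in replicates 1, 2, 3 and 4. On the J365 arrays it was 3.26, 3.34 and 2.16 in replicates 1, 3 and 4. The array without a number was the lowest in both lines. Every M0 array lay above every J365 array, and both lay above every melanoma array.

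Among the melanoma lines DB#1 stood highest. Its 4 arrays read 1.15, 1.33, 1.49 and 1.43, the narrowest spread of any line (1.35 ± 0.15, SD, n = 4). The D arrays read -0.98, -2.52, -1.78 and -2.85 (-2.03 ± 0.83, SD, n = 4). On D replicate 3 (-1.78), 89.9% of probes were well above background. Some genes dim on the other D arrays read as high there (Col3a1, -1.68), and others did not (Ptprc, -6.76). The Clu value of that array is thus less certain. Without it DB#1 exceeded D by 3.46, and D exceeded M by 1.77. No D array came near the DB#1 range, and the highest D value, on replicate 1, was also the array with the lowest share of probes above background.

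The remaining 3 melanoma lines lay lowest. M read -3.79, -4.59 and -3.27 (-3.88 ± 0.66, SD, n = 3), DB#2 read -4.26, -2.72 and -3.18 (-3.39 ± 0.79, SD, n = 3), and DB#3 read -3.68, -3.18 and -2.90 (-3.25 ± 0.40, SD, n = 3). These ranges overlapped. Clu was not well above background on M replicate 2 and DB#2 replicate 1, and was well above background on the other 22 arrays. By mean level the order was M0, J365, DB#1, D, DB#3, DB#2 and M. The neighbours DB#3 and DB#2, and DB#2 and M, did not differ beyond their spread. D and DB#3 did not overlap, but the lowest D array (-2.85) and the highest DB#3 array (-2.90) nearly met.

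**Figure D1:**
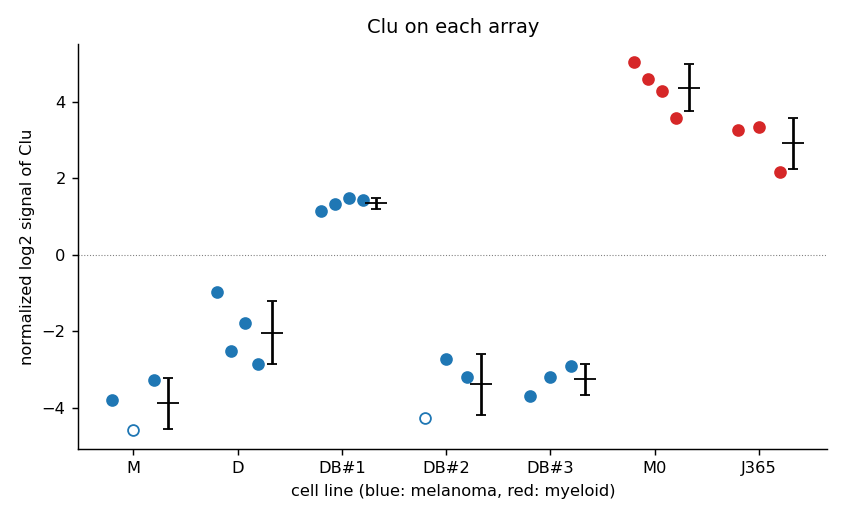
Normalized log2 signal of Clu on each of the 24 arrays by cell line, with the mean and SD of each line in black. Open points are arrays on which Clu was not well above background. The 4 DB#1 arrays sit between 1.15 and 1.49, above all other melanoma arrays and below all myeloid arrays.

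DB#1 exceeded D by 3.38 on the log2 scale, which is 10.4-fold, and exceeded M by 5.23, or 37.6-fold. D exceeded M by 1.85, or 3.61-fold. The ranges of the lines did not overlap in any of these comparisons, and none carries a test here. The sizes rest on dim signals in M and D. With normexp background correction DB#1 exceeded D by 5.96-fold and M by 9.87-fold, and D exceeded M by 1.66-fold.

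The slides differed for Clu as for other genes. Relative to its own line's mean, Clu was on average 0.43 higher on slide 1 and 0.39 lower on slide 2. Within slides, DB#1 exceeded D by 3.24, 2.93 and 4.22 on slides 1, 2 and 3, and D exceeded M by 1.53, 2.81 and 0.94. The DB#1 difference was thus several-fold on each slide, while that of D over M ranged from 1.92-fold to 6.99-fold. The 6.99-fold came from slide 2, where the only D array was replicate 3, the array with 89.9% of probes above background.

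**Figure D2:**
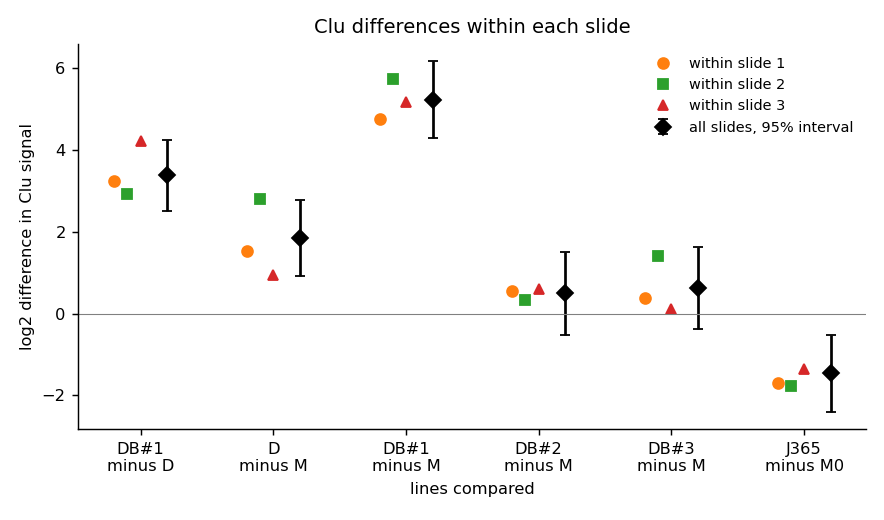
Log2 difference in Clu signal between the lines compared, within each of the 3 slides (coloured points) and over all arrays (black, with the 95% interval of the limma fit). Each slide gives the same direction in each comparison shown; the DB#2 and DB#3 intervals against M include 0.

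The comparisons that did not enter the choice of the gene were tested with limma over all genes. Clu was lower in M than in M0, with a log2 difference of -8.26 (SE 0.45, 306-fold, limma adjusted p = 1.45e-12), in a comparison in which 58.5% of the genes tested were called at an adjusted p under 0.05. Clu was tested there through M0 alone, as it was not well above background on M replicate 2. The fold thus rests on dim signal in M. With normexp the signal in M was 72.3-fold lower, and with only those lines in the fit the limma adjusted p = 4.05e-07. In the 2 other brain-site lines Clu was not called. DB#3 differed from M by 0.63 (SE 0.48, 95% interval -0.37 to 1.63, limma adjusted p = 0.860), where 2.76% of genes were called. Clu was tested there through DB#3 alone. DB#2 differed from M by 0.50 (95% interval -0.53 to 1.52) and was not tested, since neither line had Clu above background on all its arrays.

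J365 lay below M0 by 1.46 (SE 0.45, 95% interval -2.40 to -0.51), a 2.75-fold lower signal with no overlap between the lines. It did not pass the threshold, with a limma adjusted p = 0.167 in a comparison in which 1.47% of genes were called. With only those lines in the fit the limma adjusted p = 0.270. With slide as a block the difference was -1.56 and the limma adjusted p = 0.0282, and it passed. Without J365 replicate 4 the difference was -1.08 (limma adjusted p = 0.783), and without M0 replicate 4 it was -1.72 (limma adjusted p = 0.0667). Clu was lowest on replicate 4 in both lines, as were Fos, Ero1a and P4hb, while Hspa5 was highest there in both. Leaving out the array of only 1 line thus raises that line's Clu mean alone. With both arrays left out, and the replicate number as a block, the difference was -1.41 (limma adjusted p = 0.592). Within slides 1, 2 and 3 the difference was -1.70, -1.77 and -1.34.

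The genes whose signal followed Clu most closely over the 17 melanoma arrays were Gm15910 (Pearson r = 0.93), Sigirr (0.90), Tph2 (0.89), Carmn (0.85) and Mbp (0.84), out of 1420 genes that varied between lines. By Spearman correlation the same genes ranked 58, 18, 65, 7 and 59 of the 1420. These correlations describe arrays that share lines and slides and carry no test. Sigirr, a receptor that dampens interleukin-1 and Toll-like receptor signalling, read 1.40, 1.54, 1.61 and 1.50 on the DB#1 arrays. On the D arrays it read -0.78, -1.31, -1.76 and -1.45, and its mean in M was -2.89. Unlike Clu, Sigirr had a higher mean in DB#3 (-0.76) than in D (-1.33).

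Tph2, an enzyme of serotonin synthesis, stood at -0.15 in DB#1, -1.12 in D, -1.06 in DB#3 and -1.33 in M. Mbp, myelin basic protein, stood at 2.86 in DB#1 and 0.74 in D. Gm15910, a predicted gene, was above background on all DB#1 arrays and on no M, DB#2 or DB#3 array. Carmn, a long non-coding RNA, had means of -2.52 in DB#1 and -4.24 in D, and was above background on only 2 of the 4 D arrays. In the opposite direction the lowest correlations were those of Bcan (-0.78), Zbtb8a (-0.78) and Ip6k3 (-0.75). Bcan, which encodes the brain matrix proteoglycan brevican, had means of 4.69 in M, 3.39 in D and 2.67 in DB#1.

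Over all 24 arrays the closest genes, among 8055, were Arhgap45 (r = 0.92), Gypc (0.91), S100a6 (0.91), Lck (0.91) and Dpf1 (0.90). All 5 were highest in the myeloid lines. Arhgap45 stood at 6.04 in M0, 6.06 in J365, 1.30 in DB#1 and -1.74 in D.

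**Figure D3:**
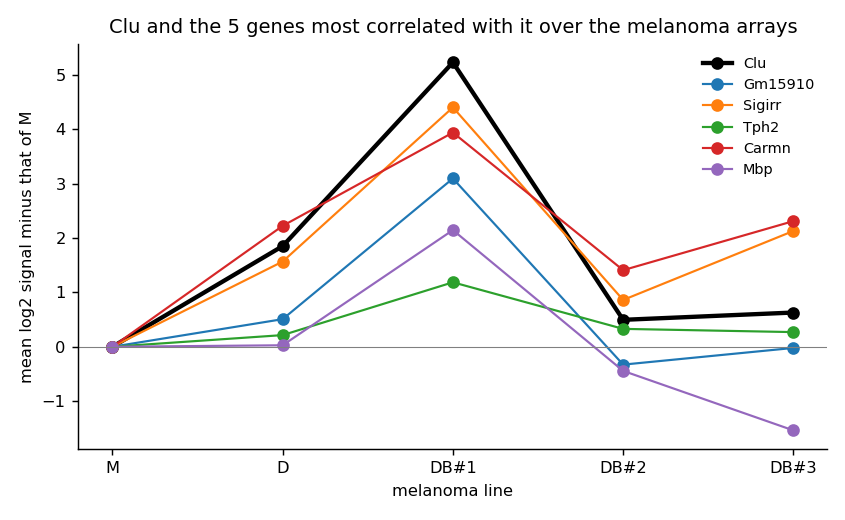
Mean normalized log2 signal in each melanoma line minus that of M, for Clu (black) and the 5 genes with the highest Pearson r with it over the 17 melanoma arrays. All 6 genes are highest in DB#1; Mbp is below M in DB#3, where Sigirr and Carmn are above it.

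The genes of clusterin's own pathway were compared next, from 9 lists with 157 genes. In DB#1 against D, 0 of the 106 members tested were called by limma, where 0.475% of all genes tested were called (96 of 20203). At an unadjusted p under 0.05 there were 7 of the 106, beside 849 of the 20203. List members called only in comparisons with M, which are named in what follows, were named after their values were seen. The median difference over the members was 0.06, against 0.05 over all genes tested. The call count became 1 under a few other settings, with Cfi called after quantile normalization and without D replicate 3, and Hspb8 called without the filter on dim probes and without D replicate 2. In the main fit Hspb8 was too dim to be tested. Its measured difference was -3.38 (SE 0.41), but it was above background on no DB#1 array, so that size rests on dim signal.

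Among the receptors and uptake partners, 10 of 16 were tested. Sortilin, Sort1, which sorts proteins between the Golgi and endosomes, stood at 5.28 in DB#1, 4.90 in D and 5.42 in M. Lrp8, a receptor for reelin and clusterin, stood at -0.98, -0.95 and -0.68 in the same lines. Levels of Lrpap1, a chaperone of lipoprotein receptors, lay between 3.31 and 3.57 in all 7 lines, and those of the HDL receptor Scarb1 between 3.28 and 3.65. Dab2, an endocytic adaptor, lay between -0.90 and -0.29 in the melanoma lines and was above background on no myeloid array. Lrp1, a large endocytic receptor, lay between -2.25 and -1.29 in the melanoma lines and was above background on 3 of 4 M0 and 2 of 3 J365 arrays.

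Vldlr, the very low density lipoprotein receptor, had the largest difference among the receptors. It read 0.29, -1.41, -1.28 and -1.15 on the DB#1 arrays and -2.04, -3.65, -2.02 and -4.00 on the D arrays. No array overlapped, but the difference of 2.04 (SE 0.73) did not pass the threshold (limma adjusted p = 0.694). Its level also differed by 2.67 between DB#1 and M (limma adjusted p = 0.0703).

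In each comparison of D, DB#2 and DB#3 with M, 1 of the 10 receptor genes tested was called, where 2.97%, 3.44% and 2.76% of all genes were called. None of 10 tested was called in DB#1 against M, or of 7 in J365 against M0, where 3.69% and 1.47% of all genes were called. At an unadjusted p under 0.05 there were 2 and 0, beside 2626 of 20708 and 1793 of 20659 genes. Sort1 fell in D against M by 0.52 on the log2 scale (limma adjusted p = 0.0152), a call lost under 6 of 17 other settings. Plxna4, a semaphorin co-receptor, rose in DB#2 against M by 1.51 (limma adjusted p = 0.000613) and fell in DB#3 against M by 1.67 (limma adjusted p = 0.000234), the latter call being lost with only those lines in the fit. Trem2, a microglial receptor, was above background on only 1 D and 1 M0 array. Tyrobp, its signalling partner, stood at 3.69 in M0 and 4.04 in J365 and was above background in the melanoma lines only on D replicate 3. Lrp2, which encodes megalin, was above background on 1 D and 1 DB#3 array.

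**Figure D4:**
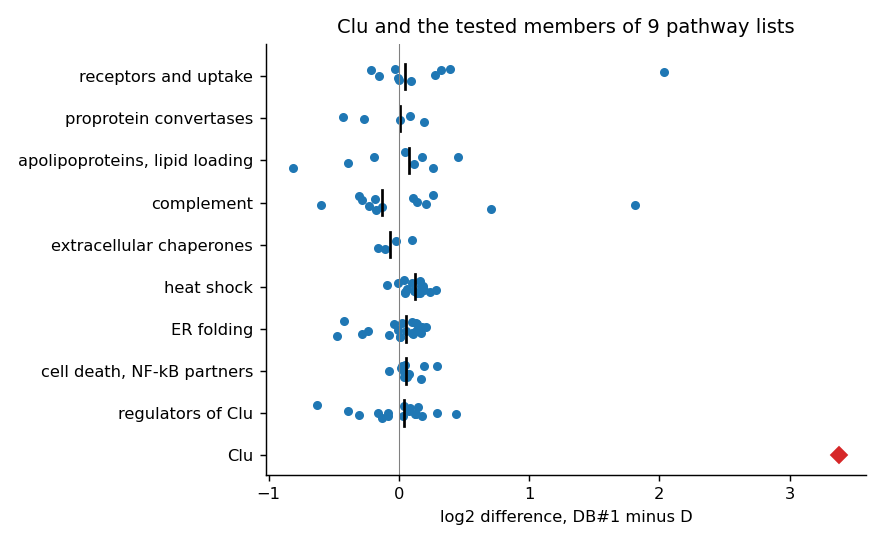
Log2 difference of DB#1 minus D for each tested member of the 9 pathway lists (blue, with the list's median as a black bar) and for Clu (red). The tested members lie between -0.81 and 2.04, where Vldlr is the highest, and Clu is at 3.38. Members too dim to be tested are not shown, among them Hspb8, which was above background on no DB#1 array.

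The proprotein convertases and the other extracellular chaperones gave no calls in DB#1 against D, D, DB#1, DB#2 or DB#3 against M, or J365 against M0. The 5 convertases tested differed between DB#1 and D by -0.43 to 0.19, and the 4 extracellular chaperones by -0.16 to 0.10. The 12 partners of clusterin in cell death and NF-kB control, which include Bax and Bcl2l1, differed between DB#1 and D by -0.08 to 0.29, and 0 were called in those 6 comparisons. At an unadjusted p under 0.05, the 6 comparisons held 2 convertases, 1 extracellular chaperone and 6 of these partners, counted over comparisons. Among all genes tested, 0.475% to 3.69% were called in these comparisons. From 849 of 20203 to 2626 of 20708 had an unadjusted p under 0.05.

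Apolipoproteins and lipid loading genes were lower in D than in M where they were called. Pltp, the phospholipid transfer protein, fell by 1.35 in D and by 1.54 in DB#1 against M (limma adjusted p = 0.0182 and 0.00464). Abca1, the cholesterol efflux transporter, fell by 0.83 in D (limma adjusted p = 0.0449). The calls in D were lost under 7 of 17 other settings for Pltp, each M array left out among them, and under 11 of 17 for Abca1. Of the 21 genes on the list, 9 were tested in D against M, and 2 called stood beside 2.97% of all genes.

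Complement genes changed in single members. In D against M 12 were tested and 3 were called, beside 2.97% of all genes. There C8g, a subunit of the terminal complex, fell by 0.95 (limma adjusted p = 0.00213), C2 fell by 1.06 (limma adjusted p = 0.0241, lost under 9 of 17 other settings), and Masp1, a lectin pathway protease, was at least 2.20-fold higher in D (limma adjusted p = 1.64e-05). In DB#1 against M, where 3.69% of genes were called, 13 members were tested and 3 were called. C8g fell by 1.18 (limma adjusted p = 0.00013), Cd59a, an inhibitor of the terminal complex as clusterin is, fell by 0.98 (limma adjusted p = 0.0344), and Cfi, which cleaves C3b, was at least 2.24-fold higher (limma adjusted p = 0.00277). The Cd59a call was lost under 10 of 17 other settings. Cfi was at least 11.9-fold higher in DB#2 than in M (limma adjusted p = 2.28e-06), where 3.44% of genes were called, and C8g fell by 1.00 in DB#3 (limma adjusted p = 0.00227). The bounds arise because the gene was above background on no M array. Each such gene was tested through the brighter line alone, and its p-value belongs to the measured difference, not to the bound.

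In the myeloid pair, J365 against M0, the complement list held 3 calls among 13 members tested, where 1.47% of all genes were called. C3, the central component, fell by 3.22 (limma adjusted p = 0.000539). It read 5.32, 4.93, 4.74 and 2.52 on M0 replicates 1 to 4 and 1.59, 1.46 and 0.40 on the J365 arrays, with no overlap and the lowest value of both lines on replicate 4. C1ra rose by 1.33 (limma adjusted p = 0.0112), and Hc, which encodes C5, was at least 1.95-fold higher in J365 (limma adjusted p = 0.00363). Hc was above background on no M0 array, and its p-value belongs to the measured difference, not to the bound. The C1ra call was lost without J365 replicate 4 or 1, that of C3 with only those lines in the fit, and that of Hc under normexp. No other pathway list had a call in this comparison. Over all lists, 8 of the 102 members tested had an unadjusted p under 0.05, beside 1793 of the 20659 genes tested.

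Among the 18 heat shock genes, 17 were tested in each comparison of a melanoma line with M, and 1 was called each time, Hspb8, a small heat shock protein. The shares of all genes called were 2.97% in D, 3.69% in DB#1, 3.44% in DB#2 and 2.76% in DB#3. It read -0.95, -1.22 and -1.09 on the M arrays, -1.71, -4.18, -2.97 and -4.13 on the D arrays, and -6.81, -6.54, -6.32 and -6.83 on the DB#1 arrays, where it was above background on none. Hspb8 fell in D by 2.16 (limma adjusted p = 0.0058) and was at least 9.57-fold lower in DB#1 and at least 9.20-fold lower in DB#3 than in M (limma adjusted p = 2.46e-08 and 5.05e-07). The p-values beside these bounds belong to the measured differences, and the gene was tested there through M alone. In DB#2 it rose by 1.74 (limma adjusted p = 0.0423), a call lost under 9 of 16 other settings. The 21 endoplasmic reticulum genes differed between DB#1 and D by -0.47 to 0.21. Among them Hsp90b1 fell by 0.54 in D against M (limma adjusted p = 0.0197), a call lost under 6 of 17 other settings.

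Of the 20 known or proposed regulators of the Clu gene, 17 were tested in DB#1 against D and lay between -0.63 and 0.44. Hsf1, Stat3 and the other factors gave no call there, where 0.475% of all genes were called. In D against M, Myc rose by 1.04 (limma adjusted p = 0.0106), while Hsf2 fell by 0.48 (limma adjusted p = 0.0125) and Tgfb1 fell by 1.56 (limma adjusted p = 0.0237). They were 3 of 17 regulators tested, where 2.97% of all genes were called. These calls were lost under 3, 6 and 9 of 17 other settings. In DB#1 against M the same 3 genes were called, with differences of 0.95, -0.45 and -2.19 (limma adjusted p = 0.0163, 0.0153 and 0.000868), and they were lost under 6, 7 and 0 of 17 other settings. In DB#3 against M, Myc rose by 0.93 and Hsf2 fell by 0.46 (limma adjusted p = 0.0376 and 0.0287), calls lost under 8 and 12 of 16 other settings and without any single M or DB#3 array. In DB#1 and in DB#3 against M, 17 regulators were tested, and 3.69% and 2.76% of all genes were called. Comparisons with M share its arrays. Of the calls of named genes other than Clu, 17 of 39 held under every other setting. Between M and M0, 51 of the 114 pathway members tested were called higher in M and 34 lower, or 74.6% beside 58.5% of all genes.

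The genes next to Clu on chromosome 14 were read in the same way. The 8 nearest genes with a probe on each side were Pnoc, Elp3, Nuggc, Scara5, Pbk, Esco2, Ccdc25 and Scara3, and Gulo, Adam2, Ephx2, Chrna2, Ptk2b, 1700001G11Rik, Trim35 and Gm41183. In DB#1 against D, 8 of the 16 were tested, they differed by -0.40 to 0.32, and 0 were called by limma at the adjusted threshold or at an unadjusted p under 0.05. Among all genes tested, 0.475% were called and 849 of 20203 had an unadjusted p under 0.05. The adjacent genes Scara3 and Gulo were not tested, since Scara3 was above background on no DB#1 array and Gulo on 3 of 4. In J365 against M0, 10 were tested, with differences of -0.39 to 0.56, and 0 were called (1 at an unadjusted p under 0.05). There 1.47% of all genes tested were called, and 1793 of 20659 had an unadjusted p under 0.05. With so few neighbours tested, both counts of 0 called lie near these shares.

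**Figure D5:**
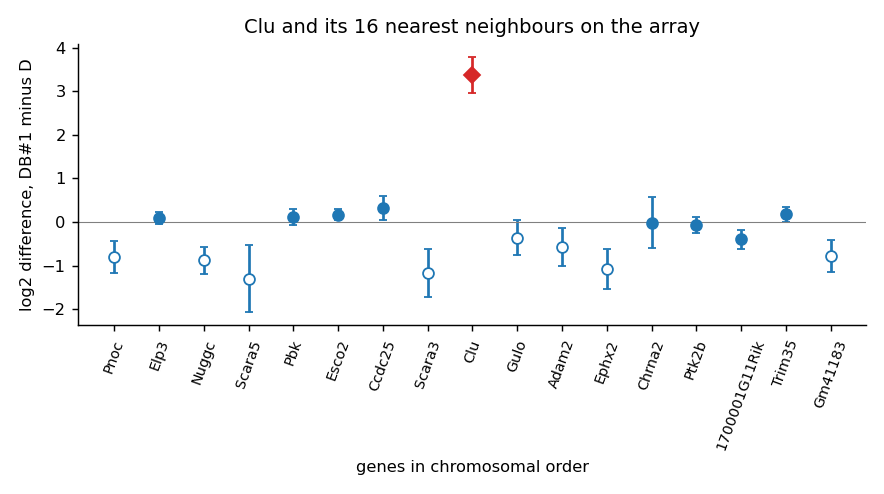
Log2 difference of DB#1 minus D (with its SE) for Clu (red) and the 16 nearest genes with a probe, in chromosomal order. Filled points were tested and lie between -0.40 and 0.32; open points were too dim to be tested, and Clu is at 3.38.

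Markers of other cell types were read beside the higher Clu signal of DB#1. Of the 10 blood lineage markers, whose lines carry the highest Clu, 3 were above background on all 4 DB#1 arrays (Coro1a, Fcer1g and Was) and 5 on none, Ptprc among them. In M the counts were likewise 3 and 5. The mean over the blood list per array was -5.14 to -4.58 in DB#1 against -4.80 to -4.48 in M. The 8 astrocyte markers had a mean of -2.07 to -1.90 in DB#1, -2.08 to -1.10 in D and -1.61 to -1.45 in M. On all 4 DB#1 arrays 6 of them were above background, Gfap and Aqp4 included. The number above background on all arrays was also 6 in M and in DB#3, and 5 in D and in DB#2. The glutamate transporters Slc1a2 and Slc1a3 were above background on no DB#1 array. The means of the 9 melanocyte markers were 6.68 to 6.77 in DB#1. For none of these lists was the median over arrays higher in DB#1 than in both M and D.

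The 6 oligodendrocyte markers had a mean of -0.85 to -0.58 per array in DB#1, -1.42 to -0.59 in D and -1.47 to -1.07 in M. The difference lay in Mbp, which rose in DB#1 against D by 2.12 (limma adjusted p = 0.00978) and against M by 2.15 (limma adjusted p = 0.00347), and the call against D was lost without DB#1 replicate 3. Olig2, which defines that lineage, was above background on no DB#1 array. In the microglia, endothelial, fibroblast, choroid plexus and ependyma, and neuron lists, 2, 1, 2, 2 and 3 members were tested in DB#1 against D. None was called, where 0.475% of all genes were called, so this count says little about these cell types. At an unadjusted p under 0.05 there was 1 fibroblast marker, Pdgfrb, beside 849 of the 20203 genes tested.

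The 7 fibroblast markers had a median over arrays of -3.91 in DB#1, -4.31 in D, -4.72 in M, -3.66 in DB#2 and -4.62 in DB#3. Pdgfrb, a growth factor receptor of mural cells and fibroblasts, was above background on no M array and on every array of the other melanoma lines. Against M it was at least 4.56-fold higher in DB#1, 2.53-fold in D and 3.56-fold in DB#3 (limma adjusted p = 4.29e-10, 2.52e-08 and 5.19e-09). These p-values belong to the measured differences, not to the bounds, and Pdgfrb was tested through the brighter line alone. In each comparison 1 of 3 tested fibroblast markers was called, where 3.69%, 2.97% and 2.76% of all genes were called. The medians of the 3 tested were -0.34, -0.12 and -0.59. DB#2 shared the higher Pdgfrb, which read -2.99, -2.69 and -2.68 there. In DB#2 against M, 5 fibroblast markers were tested, 2 were called higher and 1 lower, where 3.44% of all genes were called. Aqp1, a water channel of the choroid plexus list, rose against M by 2.48 in DB#1, 2.30 in D and 2.43 in DB#3 (limma adjusted p = 1.06e-05, 4.83e-05 and 3.8e-05). On that list 3 members were tested in each of these comparisons, and besides Aqp1 only Kcnj13 was called. Kcnj13 went the other way, differing from M by -3.23 in DB#1, -3.40 in D and -3.75 in DB#3. Pdgfrb and Aqp1 were thus higher, and Kcnj13 lower, than in M also in DB#3, where Clu was not called. These genes were named after their values were seen, and their part in the Clu signal was not tested. In the myeloid pair, 1 of the 10 blood markers tested, Fcer1g, was called, where 1.47% of all genes were called. It rose by 3.09 in J365 (limma adjusted p = 8.77e-09). In bulk RNA, fewer cells of a type and less RNA per cell cannot be told apart.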

How the data were processed

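Total RNA of 7 lines was hybridised to 24 one-colour Agilent arrays (cyanine 3). The authors deposited scanner tables from Agilent Feature Extraction 10.7.3.1, with a linear intensity per spot that was background-corrected and not scaled between arrays. Their series table held the same intensity on all 1511424 values. It served as the setting without scaling.

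Spots marked as outliers were left out (117 of 56605 probes), spots of a probe were averaged on the log2 scale, and each array's 75th percentile was subtracted. The brightest probe stood for a gene, and where several probes of a gene named with a difference could be read, they gave the same direction. Names came from accessions matched to a RefSeq table of GRCm38.p6 (32917 probes). The array design refers to mm9, so no coordinates are given. The promoter of Clu was not analysed here. Some list members are not reported here by name.

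Lines were compared with limma 3.58.1 (R 4.3.3) by a single fit over all arrays, 1 term for each line and 17 residual degrees of freedom. A gene was tested if well above background on every array of at least 1 line compared, and called at a Benjamini-Hochberg adjusted p under 0.05 over the genes tested. The spread was shrunk over the genes tested. The first fit shrank it over all genes. That was replaced after its counts had been seen, to follow an earlier processing of these data, and it is kept as an alternative. A fold is at least N-fold where a line had the probe above background on no array, taken against the lowest signal well above background. The p-value beside such a fold belongs to the measured difference, not to the bound, and the gene was tested through the brighter line alone. Clu and the gene lists were chosen with earlier results of these data known. Named genes were list members called in DB#1 against D or J365 against M0, readable receptors, neighbours, and the genes most and least correlated with Clu. Other list members were named after their values were seen. The alternatives were quantile normalization, normexp (offset 50), another percentile, no scaling, no filter, slide or replicate as a block, fewer lines in the fit, the mean of probes, and leaving out each array. The fit was tested on simulated data.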

Additional observations from a re-analysis of the deposited data

Results flagged for a closer look

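The values of Clu in D against M and in J365 against M0 lay in opposite directions. Every D array lay above every M array (by 1.85 on average), and every J365 array lay below every M0 array (-1.46). The difference between these was not tested, since D arrays entered the choice of the gene, and J365 against M0 did not itself pass the threshold.

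Some arrays stood apart from the others of their line of 4 for a named gene. Chance flags about 1 in 20 such groups, and 111 groups were examined. DB#1 replicate 1 stood high for Vldlr (0.29, the others -1.41 to -1.15), C1ra (0.48, the others -0.54 to -0.37), Pltp (-0.69, the others -1.70 to -1.60) and S100a6 (2.95, the others 1.67 to 1.88). D replicate 1 stood high for Pltp (-0.25, the others -1.65 to -1.46) and S100a6 (3.92, the others 0.13 to 0.57). Plxna4 was low on DB#1 replicate 3 (-0.96, the others -0.76 to -0.74), and Arhgap45 was low on M0 replicate 4 (5.41, the others 6.21 to 6.29). Tyrobp was high on D replicate 3 (-1.27, the others -6.56 to -5.66), the array with 89.9% of probes above background. Clu itself had no such array.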

How the results depend on the processing

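Clu kept its direction in all 7 comparisons under every alternative. Normexp background correction, run on the median spot signal because the files used here hold no mean signal and thus chosen after seeing the data, moved DB#1 minus D to 2.58, D minus M to 0.73 and DB#1 minus M to 3.30. It gave -6.18 for M minus M0, 0.0089 for DB#2 minus M and 0.18 for DB#3 minus M. J365 minus M0 passed the threshold under normexp (-1.33, limma adjusted p = 0.0211) and with slide as a block (-1.56). Leaving out 1 array gave 3.11 to 3.73 for DB#1 minus D, 1.50 to 2.16 for D minus M, 4.88 to 5.54 for DB#1 minus M, 0.14 to 0.93 for DB#2 minus M, 0.28 to 0.93 for DB#3 minus M, -1.72 to -1.08 for J365 minus M0 (limma adjusted p = 0.0667 to 0.783) and -8.56 to -7.91 for M minus M0. Shrinking the spread over all genes, the setting first run, gave 75 calls in place of 96 in DB#1 minus D and 447 in place of 598 in D minus M. It changed no call of Clu (J365 minus M0, limma adjusted p = 0.221) but ended those of Sort1, Abca1, Hsp90b1 and Hsf2 in D minus M. It also ended those of Cd59a and Hsf2 in DB#1, of Hspb8 in DB#2 and of Hsf2 and Myc in DB#3 against M. The count in DB#1 minus D was 58 without scaling and 34 with only those lines in the fit. In D minus M it was 1083 with slide as a block, 135 with only those lines, 393, 359 and 337 without M replicates 1, 2 and 3, and 934 without D replicate 1. With slide as a block it was 1163 in DB#1 minus M, 1113 in DB#2 minus M and 499 in J365 minus M0. In DB#2 minus M it was 1255 without scaling and 452 without M replicate 2. In J365 minus M0 it was 539 after quantile normalization. The cause was not tested.

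Replicate numbers did not pair the samples, as deviations of arrays with the same number correlated at 0.08 on average (-0.80 to 0.91 over 49 pairs). Deviations of arrays on the same slide correlated at 0.55 on average, and those of arrays on other slides at -0.25. The main fit held no term for the slide, and slide as a block was run only as an alternative. With the replicate number as a block, and the arrays without a number left out, Clu differed by 3.38 in DB#1 minus D, 1.91 in D minus M, 5.29 in DB#1 minus M, 0.50 in DB#2 minus M, 0.53 in DB#3 minus M, -1.41 in J365 minus M0 and -8.52 in M minus M0. No call of Clu changed under this block.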
